A study of Mus musculus with 2 samples.

Results

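The 10 genes described here are 4 ligands (Dll4, Dll1, Jag1, Jag2), 4 receptors (Notch1, Notch2, Notch3, Notch4) and 2 targets (Hey1, Heyl) of the Notch pathway, of 32285 genes in the deposited count tables. They were taken by symbol from a fixed list, made with earlier results of these data known, and each symbol matched 1 row. They were read in 2 single-cell RNA libraries from mice, 1 library per group. The injured group is the injured tendon at post-tenotomy day 7 after burn/tenotomy. The uninjured group is the contralateral uninjured tendon, also labelled burn/tenotomy, so it does not come from untreated mice. Both groups carry Hoxa11 wt/CreERT2 together with R26 wt/LSL-rtTA and the transgene TetO-Vegfd, in which Cre acts where Hoxa11 is expressed and rtTA then allows the Vegfd transgene to be switched on. Neither library is a control for the transgene. Per the design text the mice were male and female, 8 to 12 weeks old at the procedure, 5 per group, and were killed 7 days later. The sources used here do not say how many mice entered each library, and both libraries held cells with Xist and cells with Y-linked RNA.

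Notch receptors are membrane proteins that are cleaved when a ligand on a neighbouring cell binds them, and the freed intracellular part joins the DNA-binding protein Rbpj to switch on genes of the Hes and Hey families. In vessels, Dll4 is known for restraining sprouting and marking arterial and tip cells, Jag1 for signalling between endothelium and smooth muscle, and Notch3 as the receptor of mural cells. In skeletal muscle, Notch signalling and Heyl are known for keeping satellite cells, the muscle stem cells, quiescent.

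After filtering, 9151 injured and 4700 uninjured cells were kept, with a median of 17492 and 15772 UMIs (counted RNA molecules) per cell. The libraries shared 19 barcodes, 8 among the kept cells. Cells were clustered without the 10 genes or 45 other Notch pathway genes, so the classes were not set by them, and clusters were named from marker lists that held none of them. The classes, injured then uninjured, were vascular endothelial (1136 and 1744 cells), lymphatic endothelial (84 and 84), mural (453 and 225), mesenchymal (2425 and 1331), and satellite cells (16 and 275). All 11 endothelial markers and all 8 lymphatic markers were detected in at least 10% of cells of their class in both libraries, as were 11 pericyte and 10 smooth muscle markers in mural cells and 9 satellite cell markers in satellite cells. The mesenchymal class joined clusters named from fibroblast, tendon cell or chondrocyte markers. The last were a cluster led by Cxcl5 (453 and 1 cells) and a cycling one (254 and 7 cells), so cells named from chondrocyte markers were nearly all injured. A cluster led by Apod and Gpc3 (68 and 58 cells) scored higher for chondrocyte than for fibroblast markers. It was named fibroblast because fewer than 3 chondrocyte markers were detected in at least 10% of its cells. For the labelled tissue, 9 of 9 tenocyte markers reached that share in uninjured mesenchymal cells and 7 of 9 in injured ones. Levels are given as CPM, a count of UMIs of a gene scaled to 1000000 UMIs summed over a class. Each value in parentheses after a level is its exact Poisson 95% interval, which covers counting error only. With 1 library per group there is no replicate, so injured and uninjured cells are compared without a test or p-value. Differences between mice, digestion and injury cannot be told apart.

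Each gene had its own place among the classes (plot of levels by class). Dll4, Jag2, Notch4 and Hey1 had most of their UMIs in vascular endothelial cells in both libraries. That class held 77.1% of injured and 75.1% of uninjured Dll4 UMIs, while it held 15.4% and 34.4% of all UMIs. Notch3 had 64.6% of its injured UMIs in mural cells, which held 4.48% of all UMIs there. Heyl UMIs were shared by mural and mesenchymal cells in the injured library (41.2% and 44.1%), while in the uninjured library 41.1% came from satellite cells (plot of the classes that held the UMIs). Jag1 and Notch2 were spread over many classes.

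**Figure D1:**
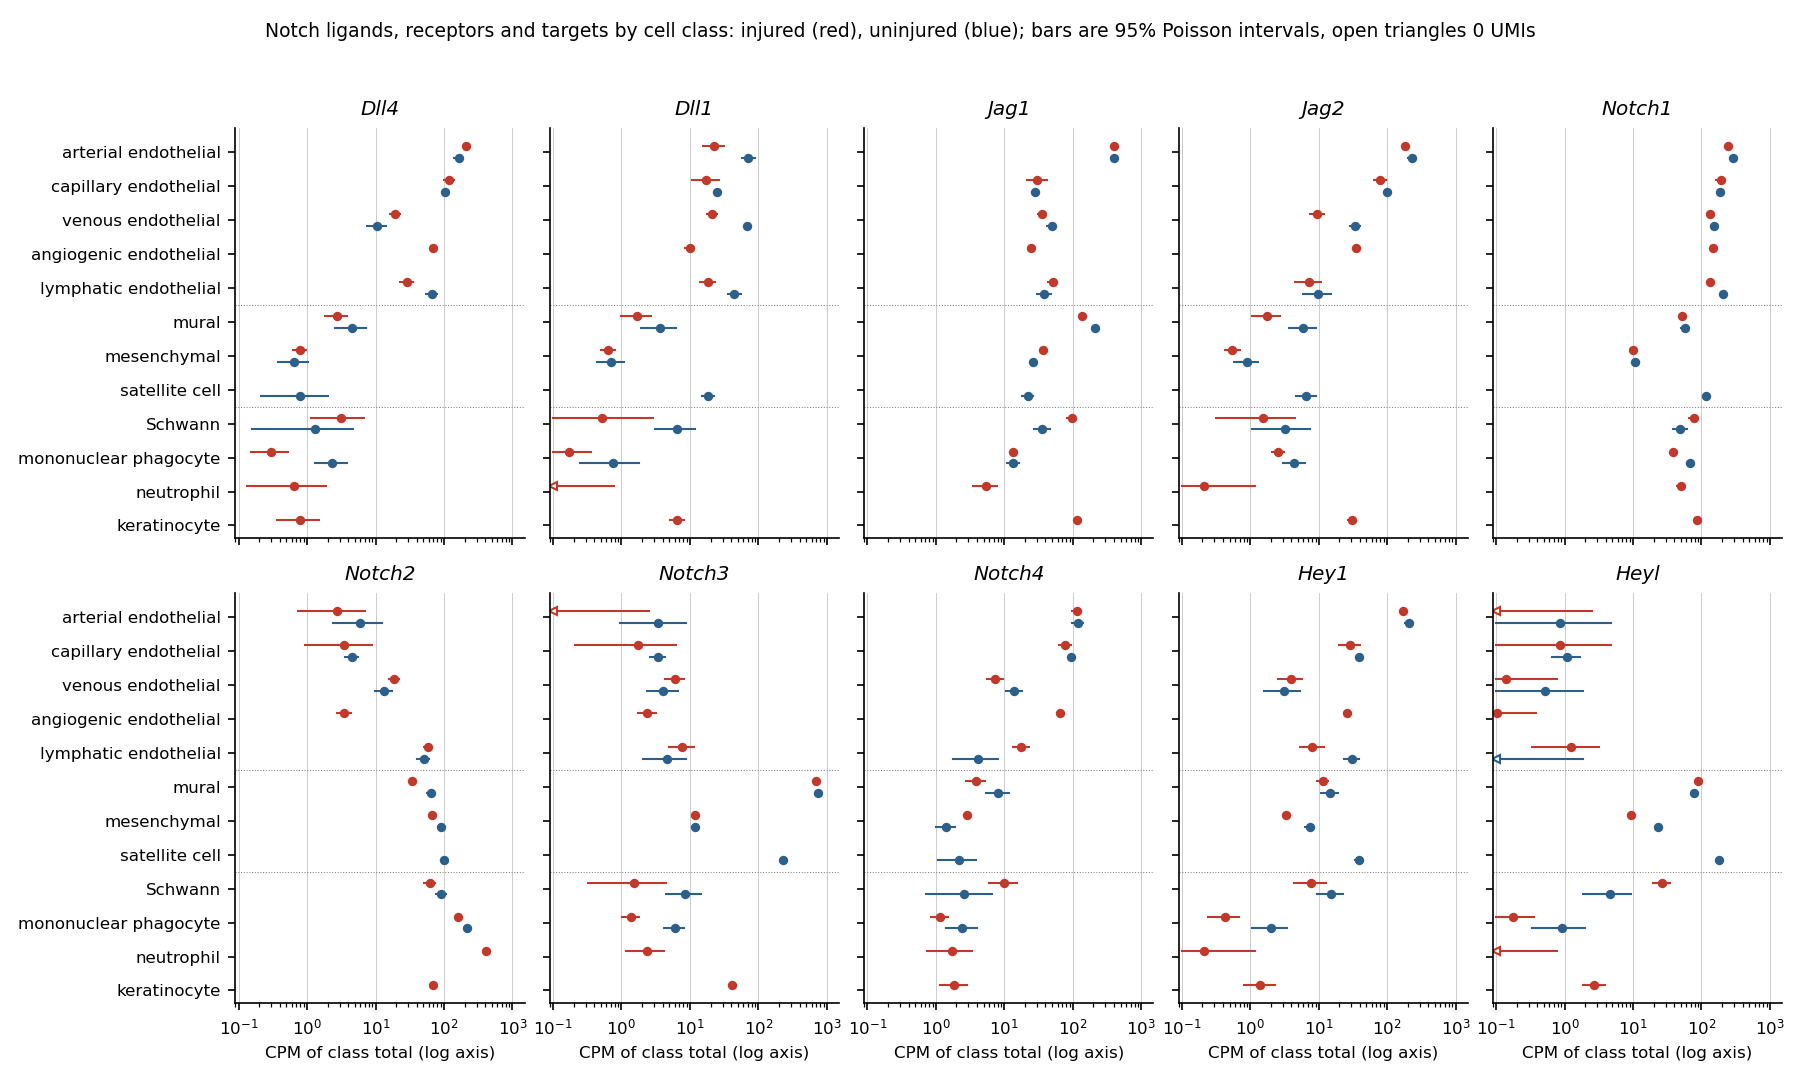
Level of each of the 10 genes (CPM, log axis) in each class with 50 or more cells of a library, injured in red and uninjured in blue, with 95% Poisson intervals as bars; an open triangle marks 0 UMIs. Dll4, Jag2, Notch4 and Hey1 were highest in arterial endothelial cells or next to them, Notch3 in mural cells, Heyl in mural and satellite cells, and Notch2 in neutrophils and mononuclear phagocytes.

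**Figure D2:**
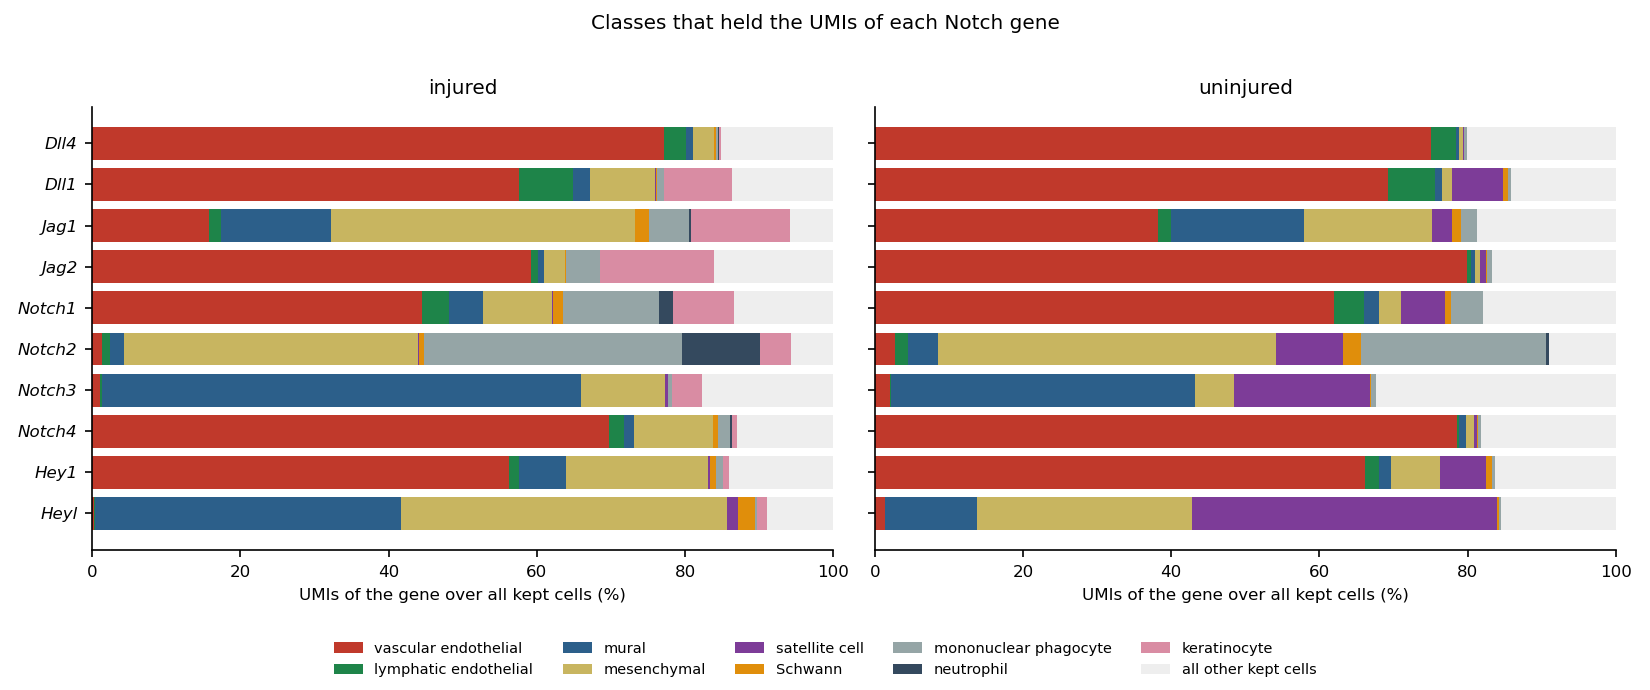
Share of the UMIs of each gene (%, horizontal axis) held by each class over all kept cells of the injured and the uninjured library. Vascular endothelial cells held 77.1% and 75.1% of Dll4, and satellite cells held 41.1% of uninjured Heyl.

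Dll4 (chr2:119325784-119335962, plus strand, mm10) is the ligand of arteries and sprouting vessels. Arterial cells were its highest class in both libraries, at 209 CPM (187 to 234) injured and 164 CPM (142 to 189) uninjured. Among the named subtypes capillary cells followed at 118 (99.0 to 140) and 103 CPM (98.2 to 107). Next were injured angiogenic cells, a subcluster led by Mest, Ccser1, Plvap and Aplnr, at 68.1 CPM (64.4 to 71.9). The intervals of these neighbours did not overlap within a library. An uninjured subcluster of 237 cells without a subtype name, led by Rbp7, Cxcl12 and Sox17, lay between arterial and capillary cells at 123 CPM (113 to 133). Venous cells were low, at 19.1 and 10.5 CPM. Mesenchymal cells were lower still, at 0.787 (0.630 to 0.970) and 0.644 CPM (0.382 to 1.02). Mononuclear phagocytes held 0.298 (0.154 to 0.521) and 2.30 CPM (1.29 to 3.79). Mesenchymal cells thus lay above phagocytes in the injured library and below them in the uninjured one. After each cell was thinned to 5000 UMIs, which left out shallower cells, 56.9% of 51 injured and 40.7% of 59 uninjured arterial cells had a Dll4 UMI, against 0.209% and 0.759% of mononuclear phagocytes and 0.437% of injured neutrophils. Unthinned, the arterial shares were 80.0% and 67.6%. The median depths were 22303 and 11915 UMIs in arterial cells, 13661 and 14941 in phagocytes and 3951 in neutrophils.

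Dll1 (chr17:15367354-15376872, minus strand) is a related ligand known from muscle progenitors and from arterial endothelium. In uninjured cells it was 71.4 CPM (56.9 to 88.5) in arterial and 69.1 CPM (61.1 to 77.9) in venous cells, whose intervals overlap, then 44.8 CPM in lymphatic, 24.95 CPM in capillary and 18.3 CPM (14.8 to 22.5) in satellite cells. In injured cells the 4 highest classes, from 17.4 CPM in capillary to 22.3 CPM in arterial cells, had overlapping intervals. Satellite cells were the class outside endothelium with the most Dll1 in the uninjured library. Of 270 uninjured satellite cells thinned to the same depth, 5.56% (exact binomial 3.14 to 8.998%) had a Dll1 UMI, and 15.6% did unthinned, against 0.506% thinned and 0.721% unthinned in uninjured phagocytes.

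Jag1 (chr2:137081456-137116644, minus strand), a ligand of the Serrate type, was highest in arterial cells, at 397 CPM (366 to 431) injured and 407 CPM (371 to 445) uninjured. Mural cells came next at 137 (130 to 144) and 213 CPM (198 to 228). The other 3 ligands were at most 5.94 CPM in mural cells. The lowest class with 50 or more cells was dendritic cells, at 5.27 and 1.89 CPM. Injured keratinocytes, a class without uninjured cells, held 116 CPM (110 to 122).

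Jag2 (chr12:112907819-112929776, minus strand), the other Serrate-type ligand, was 184 (163 to 208) and 232 CPM (205 to 262) in arterial cells and 79.0 and 98.9 CPM in capillary cells. Mural cells held 1.78 and 5.94 CPM, with intervals that overlapped those of phagocytes, at 2.56 and 4.44 CPM. Mesenchymal cells lay below phagocytes, at 0.552 and 0.895 CPM. In the uninjured library 62.7% of thinned arterial and 38.9% of thinned capillary cells had a Jag2 UMI (71.8% and 64.3% unthinned), against 1.01% of thinned phagocytes. Outside endothelium its highest level was 6.64 CPM in satellite cells of the uninjured library and 30.3 CPM in keratinocytes of the injured one.

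Among the receptors, Notch1 (chr2:26457903-26516663, minus strand) was broad. Among named classes it was highest in arterial cells, at 247 (222 to 273) and 292 CPM (261 to 324), and the uninjured Rbp7 subcluster held 320 CPM (305 to 337), which overlaps the arterial interval. It stood at 117 CPM (108 to 126) in uninjured satellite cells, at 51.8 and 57.4 CPM in mural cells and at 10.0 and 10.8 CPM in mesenchymal cells, the lowest class of both libraries with 50 or more cells. In the uninjured library lymphatic cells (209 CPM, 189 to 230) and capillary cells (187 CPM, 181 to 194) had overlapping intervals.

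Notch2 (chr3:98013527-98150361, plus strand) had nearly the reverse pattern. It was 66.1 (64.6 to 67.6) and 91.4 CPM (87.9 to 94.99) in mesenchymal cells, 98.6 CPM (90.2 to 108) in uninjured satellite cells and 58.3 and 50.3 CPM in lymphatic cells. Arterial, capillary and angiogenic cells held 2.70 to 6.02 CPM, the uninjured Rbp7 subcluster 1.48 CPM (0.595 to 3.05), and venous cells held 18.7 and 13.1 CPM. Within endothelium Notch2 was thus higher in lymphatic and venous than in arterial cells, while Notch4 was ordered the other way.

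Notch3 (chr17:32120820-32166852, minus strand) had its highest level in mural cells, at 704 CPM (688 to 720) injured and 743 CPM (714 to 771) uninjured. Uninjured satellite cells held 229 CPM (216 to 242), and mesenchymal cells 12.0 and 11.9 CPM. Of thinned mural cells, 92.3% and 93.3% had a Notch3 UMI (95.4% and 97.3% unthinned), and of thinned uninjured satellite cells 60.4%, against 0.710% and 0.759% of phagocytes. Notch3 was therefore read in nearly every mural cell of either library. The injured library had no Notch3 UMI in 55 arterial cells, which allows a share of up to 5.45% of such cells with a UMI.

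Notch4 (chr17:34564268-34588503, plus strand), an endothelial receptor, was 114 (97.01 to 132) and 118 CPM (98.9 to 139) in arterial, 77.2 and 95.5 CPM in capillary and 65.2 CPM in injured angiogenic cells. Venous cells held 7.38 and 13.9 CPM. Injured mesenchymal cells held 2.85 CPM (2.54 to 3.18), low but above the 1.14 CPM (0.837 to 1.53) of injured phagocytes. In the uninjured library mesenchymal cells held 1.40 CPM (0.993 to 1.91) and satellite cells 2.15 CPM (1.07 to 3.84). Both intervals overlapped that of uninjured phagocytes, at 2.45 CPM (1.40 to 3.98).

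The targets Hey1 and Heyl encode repressors of the same family and were found in different cells. Hey1 (chr3:8663359-8667256, minus strand) stood in arterial cells at 173 CPM (152 to 196) injured and 208 CPM (183 to 236) uninjured. The unnamed uninjured subcluster led by Rbp7 held 225 CPM (212 to 239), an interval that overlaps the arterial one. Capillary cells were at 28.6 and 38.5 CPM and uninjured satellite cells at 38.6 CPM (33.5 to 44.4). Venous cells held only 3.90 and 3.08 CPM. Heyl (chr4:123233556-123249875, plus strand) was 89.0 (83.4 to 94.8) and 78.4 CPM (69.4 to 88.1) in mural cells, 179 CPM (168 to 191) in uninjured satellite cells and 9.21 and 23.2 CPM in mesenchymal cells. In vascular endothelial cells it was 0.163 and 1.02 CPM, not above the 0.174 and 0.918 CPM of phagocytes beyond counting error. Of 270 thinned uninjured satellite cells 55.9% had a Heyl UMI (83.3% unthinned), against 0.253% of thinned phagocytes.

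Promoter windows from RefSeq (GRCm38.p6, 250 bases before to 50 after a start) were matched by symbol for 8 of the 10 genes, and Hey1 and Heyl had no entry. The letters GTGGGAA, a core of the Rbpj motif, were searched on both strands, the other strand reading TTCCCAC. They were in none of the 9 windows of the 8 genes and in 6.38% of all 32851 windows. Among the other targets in the table, Hey2 and Hes5 each held the letters on both strands, and Nrarp and Hes6, with 3 windows, held none. Hey2, another Hey repressor, is shown because it was past 2-fold apart between libraries in arterial and mural cells, and Hes5 because it held the same letters and had at most 8 UMIs in any endothelial, mural or mesenchymal class of either library. Capitals mark the matches, which begin at positions -207 and -4 from the start in Hey2 (chr10:30842781-30843033, minus strand, up to the end of the second match) and at -226 and -83 in Hes5 (chr4:154960673-154960922, plus strand). A match is a description of letters, not a measured binding site.
Hey2: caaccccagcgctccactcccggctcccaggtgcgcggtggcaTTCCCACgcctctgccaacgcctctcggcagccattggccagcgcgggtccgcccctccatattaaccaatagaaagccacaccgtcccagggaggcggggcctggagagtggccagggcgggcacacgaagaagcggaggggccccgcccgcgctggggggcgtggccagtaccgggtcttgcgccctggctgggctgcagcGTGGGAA
Hes5: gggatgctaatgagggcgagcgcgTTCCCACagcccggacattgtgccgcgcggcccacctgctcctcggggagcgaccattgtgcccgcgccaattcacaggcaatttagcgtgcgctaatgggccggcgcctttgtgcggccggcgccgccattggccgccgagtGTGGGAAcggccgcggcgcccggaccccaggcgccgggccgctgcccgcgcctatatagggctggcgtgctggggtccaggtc

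In vascular endothelial cells, the Notch genes were mostly lower in the injured library, with Jag2, Dll1 and Hey1 past 2-fold. Injured cells held Jag2 at 35.9 CPM (34.0 to 37.9) and uninjured cells at 103 CPM (99.6 to 107), a ratio of 0.348 (conditional exact 95% interval 0.326 to 0.371). Dll1 was 12.5 and 31.6 CPM, a ratio of 0.396 (0.354 to 0.443). Hey1 was 29.1 and 68.5 CPM, a ratio of 0.425 (0.395 to 0.458). The intervals of both libraries lay apart for each of these genes. Dll4 (63.8 and 95.04 CPM, ratio 0.671), Notch4 (55.6 and 86.4 CPM, 0.643) and Notch1 (144 and 205 CPM, 0.701) were lower by less than 2-fold, Jag1 was 41.8 and 52.7 CPM, and Notch2 was 6.89 and 5.06 CPM. A gene was counted as past 2-fold on log2 of CPM plus 5, among genes with a mean of 5 CPM or more. Of the 10 genes, 8 passed that filter, Notch3 and Heyl did not, 0 were past 2-fold higher and 3 past 2-fold lower. Over all 10253 genes that passed, 3.71% were higher and 3.93% lower. The median log2 ratio was -0.57 for the 8 genes and 0.02 for all genes.

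The makeup of that class differed between the libraries. Of 1136 injured cells, 55 were arterial, 96 capillary, 323 venous and 526 angiogenic, and of 1744 uninjured cells, 71 were arterial, 1116 capillary, 257 venous and 5 angiogenic. A subcluster with cycling genes (Top2a, Hmgb2) held 114 and 58 cells, and the subcluster led by Rbp7 held 22 and 237. On the angiogenic marker list the cycling subcluster scored 0.749, above the 0.384 of the angiogenic one. It was left without a subtype name because none of its top genes was on that list. The markers of red blood cells, mostly haemoglobin, summed to 471 CPM in injured and 3189 CPM in uninjured cells of the class, and those of fibroblasts to 361 and 158 CPM. Pericyte markers summed to 77.3 and 374 CPM, with Rgs5 alone at 36.3 and 332 CPM, while Acta2 was 48.9 and 21.2 CPM. Their part in the ratios was not tested. The 3 subtypes with 50 or more cells in each library were therefore compared separately (plot of Dll4 and Hey1 by subtype).

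**Figure D3:**
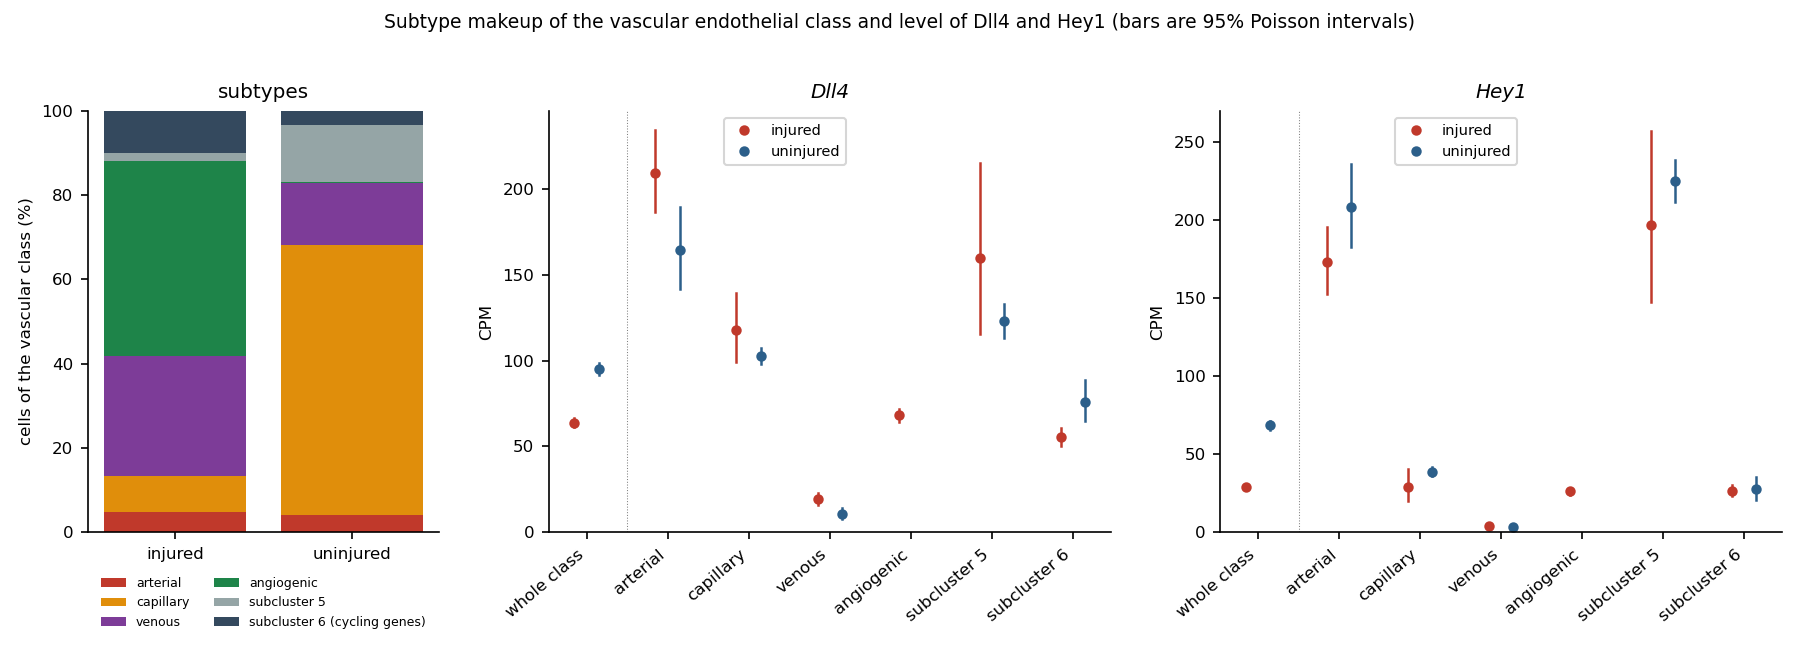
Left, share of vascular endothelial cells in each subtype (%) for each library. Middle and right, level (CPM) of Dll4 and Hey1 in the whole class and in each subtype with 20 or more cells, injured in red and uninjured in blue, with 95% Poisson intervals; Dll4 was lower over the whole injured class (63.8 against 95.04 CPM) but not in arterial (209 against 164), capillary or venous cells.

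Within subtypes the direction of Dll4 was the other way. Arterial Dll4 was 209 CPM in injured and 164 CPM in uninjured cells, a ratio of 1.28 (1.06 to 1.54). Venous Dll4 was 19.1 and 10.5 CPM, a ratio of 1.81 (1.27 to 2.63). In capillary cells the ratio was 1.15 with an interval that spans 1 (0.958 to 1.37). With arterial, capillary and venous cells given equal weight in both libraries, an alternative added after the data were seen, Dll4 was 116 CPM in injured and 92.5 CPM in uninjured cells, against 63.8 and 95.04 CPM over the class as it was. When each library was clustered alone, the injured capillary class grew from 96 to 268 cells and the capillary log2 ratio of Dll4 turned from 0.19 to -0.49. The cycling subcluster was lower as the whole class was, at 55.2 and 75.8 CPM (ratio 0.728, 0.606 to 0.878).

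Hey1, past 2-fold lower over the class, was nearer to equal within subtypes. It was 173 and 208 CPM in arterial cells (ratio 0.831, 0.695 to 0.995), 28.6 and 38.5 CPM in capillary cells (0.744, 0.508 to 1.05) and 3.90 and 3.08 CPM in venous cells (1.26, 0.623 to 2.73, under the filter). Equal weighting gave 68.5 and 83.2 CPM.

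Dll1 stayed low within subtypes. Arterial cells held 22.3 and 71.4 CPM (ratio 0.312, 0.202 to 0.473), venous cells 21.0 and 69.1 CPM (0.304, 0.247 to 0.373) and capillary cells 17.4 and 24.95 CPM (0.696, 0.421 to 1.09). The arterial and venous intervals lay apart between libraries, and the capillary ones overlapped. Jag2 was past 2-fold lower in venous cells only among the 3 subtypes, at 9.61 and 34.4 CPM (0.279, 0.206 to 0.376), and in the cycling subcluster, at 23.7 and 73.0 CPM (0.325, 0.261 to 0.405). In arterial (184 and 232 CPM, 0.794) and capillary cells (79.0 and 98.9 CPM, 0.798) it was lower by less than 2-fold. Notch1 and Notch4 were within 2-fold in all 3 subtypes, with Notch4 lowest relative to uninjured in venous cells (7.38 and 13.9 CPM, 0.532, 0.357 to 0.792).

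Of the 10 genes, 7 passed the filter in arterial cells and 1, Dll1, was past 2-fold lower with 0 higher, while 4.28% of all genes there were higher and 2.8% lower. In capillary cells 7 passed and 0 were past 2-fold either way, with 0.676% and 0.504% of all genes. In venous cells 8 passed and 2, Dll1 and Jag2, were lower with 0 higher, with 2.7% of all genes lower and 2.6% higher. In the cycling subcluster 8 passed and 1, Jag2, was lower with 0 higher, with 4.31% of all genes lower and 4.25% higher. Clustering each library alone, which changed the capillary class to 268 and 799 cells and the arterial class to 65 and 131, moved some of these calls. Capillary Hey1 (29.9 and 81.1 CPM, log2 ratio -1.30) and Jag2 (46.98 and 122 CPM, -1.29) were then past 2-fold lower, arterial Dll1 (20.9 and 46.5 CPM, -0.99) no longer was, and Notch3, under the filter in arterial cells before, was past 2-fold higher there, while venous Dll1 and Jag2 still were. The subtypes were not matched in their subclusters. In venous cells 277 of 323 injured cells came from 1 subcluster and 148 of 257 uninjured cells from another, so a difference of subclusters and a difference within cells cannot be told apart there. Arterial cells were 1 subcluster, with 55 and 71 cells.

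**Figure D4:**
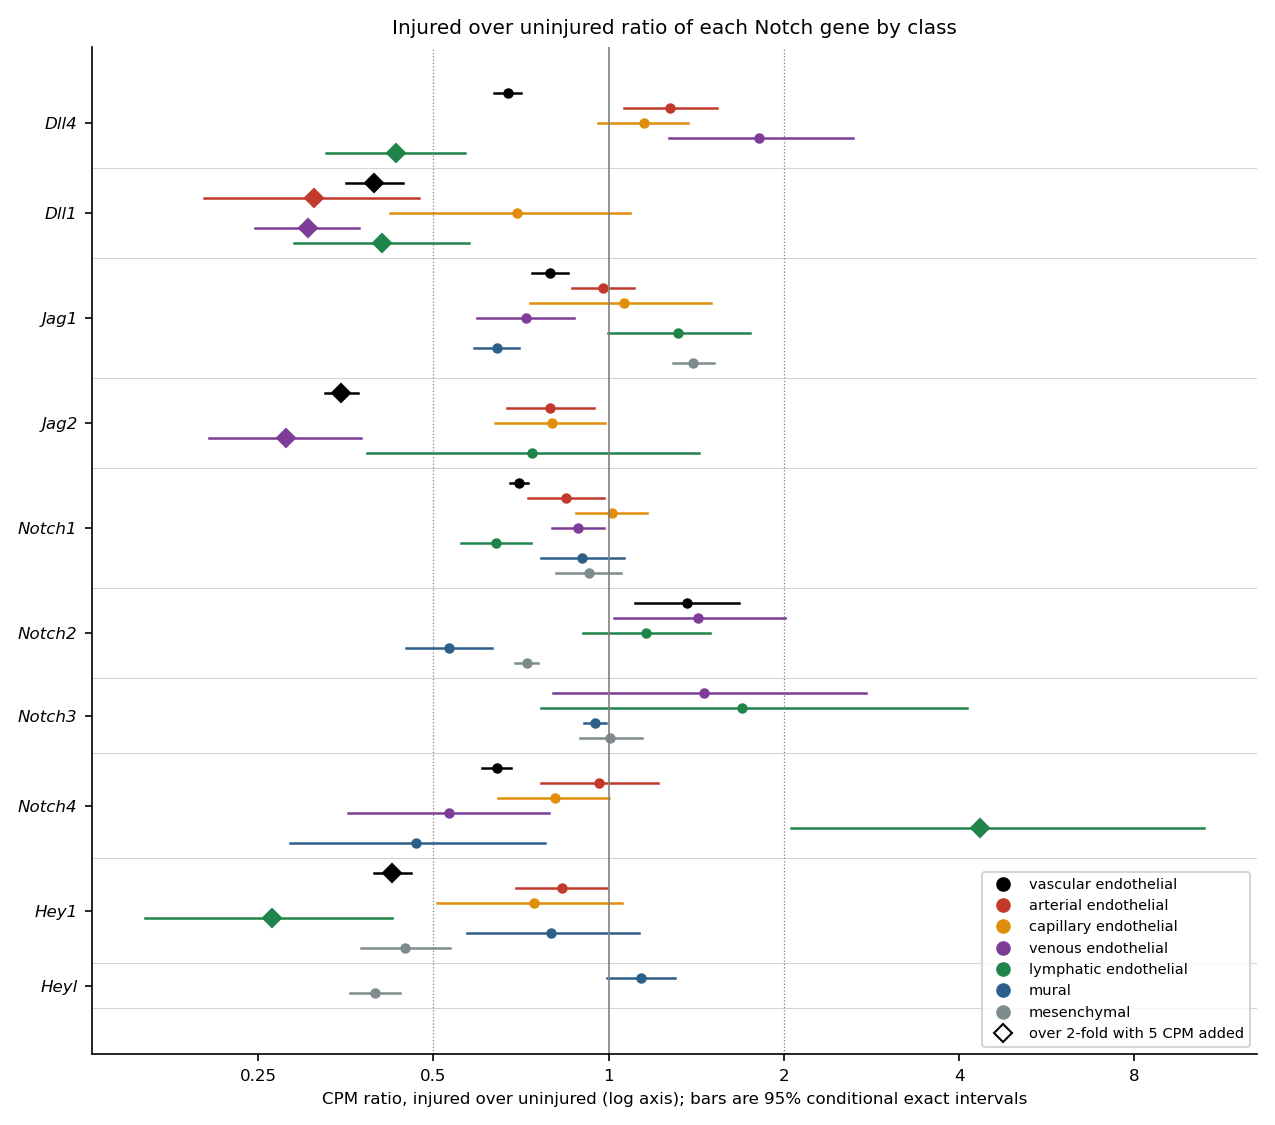
CPM ratio, injured over uninjured (log axis), of each gene in each class where it passed the 5 CPM filter, with conditional exact 95% intervals; diamonds mark genes past 2-fold with 5 CPM added. Dll4 lay below 1 in the whole vascular class and in lymphatic cells but above 1 in arterial and venous cells, Dll1 was lowest in venous and arterial cells, and Notch4 was above 2 in lymphatic cells.

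In lymphatic endothelial cells, 84 per library, Dll4, Dll1 and Hey1 were past 2-fold lower and Notch4 past 2-fold higher in the injured library. Dll4 was 28.5 CPM (23.0 to 35.0) and 66.1 CPM (55.2 to 78.5), a ratio of 0.431 (0.327 to 0.568). Dll1 was 18.3 and 44.8 CPM (0.409, 0.289 to 0.575), and Hey1 was 8.06 and 30.5 CPM (0.264, 0.160 to 0.425). Each pair of intervals lay apart. Each of these genes lost its call under some alternatives, and 2 of the 3 stayed past 2-fold after thinning (Dll4, Dll1) and by the mean of per-cell CPM (Dll1, Hey1). Notch4 was 17.7 CPM (13.4 to 22.9) from 57 UMIs and 4.07 CPM (1.76 to 8.02) from 8 UMIs, a ratio of 4.34 (2.06 to 10.5), and 32.1% and 5.95% of cells had a UMI. Thinned, those shares were 7.69% (2.88 to 16.0%) and 2.67% (0.325 to 9.30%), whose intervals overlap, and by the mean of per-cell CPM Notch4 was no longer past 2-fold. Jag2 (7.13 and 9.66 CPM) and Notch2 (58.3 and 50.3 CPM) had overlapping intervals.

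Of the 10 genes, 9 passed the filter in lymphatic cells, 1 was higher and 3 were lower, while 9.78% of all genes were higher and 9.56% lower. The median log2 ratio was -0.27 for the 9 genes and -0.00 for all genes. The lymphatic markers themselves summed to 6337 CPM in injured and 16655 CPM in uninjured cells, Top2a, a cell-cycle gene, was 275 and 52.4 CPM, and fibroblast markers summed to 1290 and 171 CPM. Red blood cell markers summed to 2058 and 79.8 CPM, and Rgs5 was 68.5 and 7.12 CPM. Their part in these differences was not tested.

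In mural cells no gene of the 10 was past 2-fold in either direction. Notch3 was 704 and 743 CPM (ratio 0.948, 0.906 to 0.991) and Heyl 89.0 and 78.4 CPM (1.14, 0.992 to 1.30). Jag1 was 137 and 213 CPM (0.642, 0.588 to 0.702) and Notch2 33.8 and 63.6 CPM (0.531, 0.449 to 0.631), with intervals that lay apart. Here 7 of 10 genes passed the filter, and 6.24% of all genes were past 2-fold higher and 5.78% lower. Markers of fibroblasts summed to 8435 CPM in injured and 4025 CPM in uninjured mural cells, and their part was not tested.

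The mural clusters differed in their share of each library. A cluster led by Rgs5 and Acta2 held 401 of 453 injured and 83 of 225 uninjured cells, and a smooth muscle cluster led by Myh11 and Acta2 held 47 and 104. In the Rgs5 cluster alone, Jag1 was 122 and 138 CPM (0.884, 0.748 to 1.05), against 275 and 260 CPM in the smooth muscle cluster. In the Rgs5 cluster Notch1 was past 2-fold higher, at 50.7 CPM (46.3 to 55.4) and 22.3 CPM (14.6 to 32.7), a ratio of 2.27 (1.53 to 3.51), and Heyl was 87.8 and 55.9 CPM (1.57, 1.22 to 2.05). In that cluster 6 of 10 genes passed, 1 higher and 0 lower, against 6.36% and 6.06% of all genes. A further cluster of 116 injured and 232 uninjured cells carried mural and capillary genes together at 2.04 times the median depth and was kept out of both classes. Jag2 (28.1 and 80.9 CPM) and Hey1 (28.6 and 67.8 CPM) were past 2-fold lower there, 2 of 10 genes, against 3.12% of all genes higher and 4.05% lower. When the libraries were clustered alone, the uninjured mural class grew from 225 to 459 cells and 6 genes (Dll4, Dll1, Jag2, Notch1, Notch4, Hey1) were past 2-fold lower in injured cells, with Notch3 at 708 and 425 CPM. Of those 459 cells, 230 were from the cluster with mural and capillary genes, against 4 of 454 injured cells, so the class then differed in makeup between the libraries.

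Mesenchymal Jag1 was 36.3 CPM (35.2 to 37.4) after injury and 25.9 CPM (24.1 to 27.9) without, a ratio of 1.40 (1.29 to 1.52). Notch2 was 66.1 and 91.4 CPM (0.723, 0.691 to 0.757), Hey1 3.30 and 7.37 CPM (0.448, 0.376 to 0.534) and Heyl 9.21 and 23.2 CPM (0.397, 0.359 to 0.439). Both Hey genes were thus lower and Jag1 higher in injured cells, with intervals that lay apart. With 5 CPM added, 6 of 10 genes passed the filter and 0 were past 2-fold either way, while 3.86% of all genes were higher and 5.98% lower. Heyl, at a log2 ratio of -0.99, lay just inside the threshold, and 1 CPM in place of 5 put it past 2-fold.

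Few mesenchymal clusters held cells of both libraries. Clusters led by Sfrp2 (796 and 4 cells), Cthrc1 (733 and 8) and Cxcl5 (453 and 1) were nearly all injured, and a cluster led by Fmod and Tnmd, a tendon gene (23 and 371 cells), was nearly all uninjured. Heyl was 37.8 CPM (33.8 to 42.1) in the Tnmd cluster of the uninjured library and 16.1, 6.85 and 0.887 CPM in the Sfrp2, Cthrc1 and Cxcl5 clusters of the injured library. Jag1 was 6.82 CPM in the Tnmd cluster and 41.5, 41.9 and 17.4 CPM in those injured clusters. The Tnmd cluster was thus the highest of the 4 for Heyl and the lowest for Jag1. Another nearly all uninjured cluster, led by Gsn, Clec3b and Dcn (13 and 279 cells), did not share this order. Its uninjured cells had Heyl at 9.08 CPM, below the Sfrp2 cluster, and Jag1 at 24.8 CPM, above the Cxcl5 cluster. In a fibroblast cluster led by Gsn and Pi16 with cells of both libraries (85 and 603), Jag1 was 65.6 and 37.4 CPM (1.76, 1.45 to 2.12), Notch2 136 and 90.3 CPM (1.51, 1.33 to 1.71) and Heyl 8.78 and 14.99 CPM (0.586, 0.346 to 0.938). Notch2 was therefore higher in injured cells of this cluster and lower over the whole class. None of the 5 genes that passed there was past 2-fold, against 2.65% and 2.35% of all genes. The other shared cluster, led by Apod and Gpc3 (68 and 58 cells), had 4 of 6 genes past 2-fold higher (Jag1 at 114 and 16.3 CPM, Notch3, Hey1, Heyl) and 0 lower, but 18.6% of all genes were higher there and 5.9% lower.

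Satellite cells could not be compared, since the injured library held 16. These had Heyl at 120 CPM (83.6 to 167) and Notch3 at 175 CPM (130 to 230), from 35 and 51 UMIs. Their Poisson intervals lay below the uninjured 179 CPM (168 to 191) for Heyl and overlapped the uninjured 229 CPM (216 to 242) for Notch3. Notch1 (96.05 and 117 CPM) and Notch2 (92.6 and 98.6 CPM) also had overlapping intervals. Receptor Notch3 and target Heyl were each read in most uninjured satellite cells. The satellite cell cluster was led by Cdkn1c, Dag1, Dmd, Chodl and Myog. Its cells were not divided into quiescent and other cells, so these levels are those of the cluster as a whole.

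Schwann cells, the glia of peripheral nerve (100 injured, 170 uninjured), had Jag1 at 96.7 CPM (83.3 to 112) injured and 35.8 CPM (27.0 to 46.6) uninjured, a ratio of 2.70 (1.99 to 3.71). Heyl was 26.4 CPM (19.6 to 34.7) and 4.56 CPM (1.83 to 9.39), from 51 and 7 UMIs, a ratio of 5.78 (2.61 to 15.1). The intervals lay apart for both genes. Of the 10 genes 7 passed the filter there, 2 were past 2-fold higher and 1 lower (Notch3, from 3 and 13 UMIs), while 10.5% of all genes were higher and 8.5% lower.

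Over all kept cells, without regard to class, 10 of 10 genes passed the filter, 7 were past 2-fold lower (Dll4, Dll1, Jag2, Notch1, Notch4, Hey1, Heyl) and 0 higher, against 5.9% and 4.51% of all genes. Vascular endothelial cells were 12.4% of kept injured and 37.1% of kept uninjured cells, and satellite cells were 0.175% and 5.85%. The part of this makeup in the sums was not tested.

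Of 45 other Notch pathway genes, few were past 2-fold, and their counts stand against the shares of all genes given above for each class. In vascular endothelial cells 34 passed the filter, 1 was higher and 0 lower, namely Maml3, a coactivator of the Rbpj complex, at 189 and 70.7 CPM (ratio 2.66, 2.54 to 2.80). Hes1, a target of the Hes family, was 390 and 715 CPM there, and Rbpj itself 63.2 and 61.9 CPM. In arterial cells 1 of 33 was higher, Hey2 at 43.9 and 13.8 CPM (3.19, 1.83 to 5.91) from 65 and 16 UMIs. In venous cells 1 of 33 was lower, Lfng, a sugar transferase that alters receptors, at 42.9 and 114 CPM (0.377, 0.325 to 0.437). None of 34 was past 2-fold in capillary cells.

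In lymphatic cells 1 of 33 pathway genes was higher and 7 were lower, in a class where 9.78% of all genes were higher and 9.56% lower. Nrarp, a target and feedback inhibitor, was 41.9 and 12.7 CPM (3.29, 2.14 to 5.27). Lower were Dtx1, a regulator of receptor turnover, at 24.2 and 234 CPM (0.103, 0.0802 to 0.132), Hes1 at 368 and 969 CPM, the protease subunits Psen2 (77.2 and 281 CPM) and Aph1b (19.2 and 124 CPM), Lfng, Maml2 and Kat2b. The targets did not move together, since Hey1 and Hes1 were lower and Nrarp higher.

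In mural cells 1 of 36 pathway genes was higher and 1 lower. Dlk1, a non-canonical ligand, was 181 and 45.3 CPM (3.99, 3.40 to 4.72), and Hey2 was 22.6 and 63.6 CPM (0.355, 0.295 to 0.428), the opposite direction to arterial Hey2. In mesenchymal cells 0 of 32 were higher and 2 lower, Hes1 at 205 and 493 CPM (0.417, 0.408 to 0.425) and Dlk1 at 9.50 and 27.9 CPM (0.340, 0.310 to 0.374).

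Ligand, receptor and target were also read together in single cells, thinned to the same depth. Of injured vascular endothelial cells with a Dll4 UMI, 16.2% (11.8 to 21.6%) had a Hey1 UMI, against 7.205% (5.52 to 9.21%) of those without. In uninjured cells these shares were 26.7% and 17.4%. Within capillary cells of the uninjured library they were 15.2% (11.5 to 19.7%) and 14.4% (11.7 to 17.5%), and within injured angiogenic cells 11.7% and 8.29%, with overlapping intervals. Injured capillary cells went the other way, at 10.0% of 30 cells and 13.3% of 45 cells, also with overlapping intervals. In arterial cells the shares were 55.2% and 36.4% injured and 66.7% and 51.4% uninjured, from 51 and 59 cells with overlapping intervals. In percentage points these arterial gaps were wider than over the whole class, but as a ratio of shares they were narrower. With so few arterial cells, whether their gap differs from that of the class cannot be told. In uninjured satellite cells 65.0% (57.2 to 72.3%) of cells with a Notch3 UMI had a Heyl UMI, against 42.1% (32.6 to 52.0%) of cells without. In mural cells these shares were 29.6% and 34.4% (18.6 to 53.2%) injured and 22.2% and 28.6% (8.39 to 58.1%) uninjured. Only 32 injured and 14 uninjured mural cells were without a Notch3 UMI, too few to tell whether there was a gap.

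The genes whose levels were most like each member over 23 points, each a class in a library with 50 or more cells, were described by Pearson r of log2 CPM plus 5 over 7937 genes. The points share libraries and depth, so r is a description. For Dll4 they were Bcl6b (0.959), Podxl (0.951) and Gata2 (0.941), and for Jag2 Samd12 (0.916), Sox17 (0.903) and Kif26a (0.900). For Notch4 they were Ssu2 (0.934), Rapgef1 (0.923) and Dll4 itself (0.912). Notch3 was closest to Lin7a (0.938), Cap2 (0.937) and Des (0.933), and Heyl to B3galt1 (0.934), Speg (0.924) and Adcy2 (0.922). For Dll1 the genes were Tead4 (0.908), Unc13b (0.904) and Sncaip (0.897), for Notch1 Rc3h1 (0.879), Afap1l1 (0.859) and Tead4 (0.856), and for Notch2 Akt2 (0.911), Cebpb (0.895) and Runx1 (0.879). Jag1 (Bcl9l, 0.876; Dbndd2, 0.857; Rabgap1, 0.843) and Hey1 (Zfp697, 0.864; Ssu2, 0.852; Arhgap5, 0.850) had no gene above 0.9. Among the members, Dll4 and Notch4, Jag2 and Notch4 (0.88), Dll4 and Jag2 (0.86) and Notch3 and Heyl (0.85) were closest, and Notch2 was opposite to Notch4 (-0.88) and Dll4 (-0.84).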

How the data were processed

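Per the labels' protocols, collagenase and dispase released the cells, which were strained and made into 3' droplet libraries. Per the file headers and the submitters' processing notes, Cell Ranger 5.0.1 and mm10 were used, and the deposited values are raw UMI counts per gene and barcode. The sources used here do not give the annotation release.

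Cells with 500 or more genes, at most 10% mitochondrial UMIs and a Scrublet score up to 0.2 were kept (scanpy 1.11.5), which left 9151 of 10691 and 4700 of 6850 barcodes. Doublets of like cells and free RNA were not removed. Cells of both libraries were clustered together (2000 variable genes without Notch pathway genes, 30 components, 15 neighbours, Leiden resolution 0.8, seed 1) and named from 24 marker lists. The 10 genes and all lists were chosen with earlier results of these data known, and the naming thresholds were set after the data were examined. Class sums, CPM, a 5 CPM pseudocount and filter and a 2-fold threshold were used, with exact Poisson, Clopper-Pearson and conditional 95% intervals. A count of 0 was given a limit of 3 cells. Injured and uninjured cells were compared where a class held at least 50 of each. Named besides the 10 genes were pathway targets and fringe genes, pathway genes past 2-fold and the 3 genes most like each member. Clusters and marker genes were also named to say what a class is. Calls were checked on simulated counts. Alternatives varied the pseudocount, filter, scaling, cell filters, clustering, gating, sex of cells and depth. Gene coordinates are from the GENCODE annotation of mm10.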

Additional observations from a re-analysis of the deposited data

Results flagged for a closer look

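Dll4 differed between injured and uninjured cells in opposite directions in venous (ratio 1.81, 1.27 to 2.63) and lymphatic endothelial cells (0.431, 0.327 to 0.568). Jag1 was higher in injured mesenchymal cells (1.40, 1.29 to 1.52) and lower in injured mural cells (0.642, 0.588 to 0.702). Within the Rgs5 mural cluster Jag1 was 122 CPM injured and 138 CPM uninjured, with overlapping intervals. Within the smooth muscle mural cluster Jag1 was 275 and 260 CPM, also with overlapping intervals. Notch2 was higher in injured venous cells (1.42, 1.02 to 2.01) and lower in injured mural cells (0.531). The mural directions of Jag1 and of Notch2 were each kept under 12 of 13 alternatives. Notch4 was higher in injured lymphatic cells (4.34, 2.06 to 10.5) and lower in injured mural cells (0.467, 0.283 to 0.779). The mural levels of Notch4 were low, at 3.83 and 8.20 CPM from 41 and 29 UMIs. In the Rgs5 mural cluster alone Notch4 was not lower, at 4.27 CPM injured and 3.44 CPM uninjured, with overlapping intervals. With 1 library per group, the difference between classes was not tested for any of these genes.

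Notch2 was also high in cells outside the vascular, mesenchymal and muscle classes. Injured neutrophils held 414 CPM (396 to 433) at a median depth of 3951 UMIs, and 68.8% of them had a UMI, or 81.2% of the 229 that were deep enough to be thinned. Mononuclear phagocytes held 160 CPM in the injured and 213 CPM in the uninjured library, dendritic cells 103 and 138 CPM, and injured T or NK cells and keratinocytes 78.0 and 69.6 CPM. The highest class among endothelial subtypes, mural, mesenchymal and satellite cells with 50 or more cells was 66.1 CPM in the injured and 98.6 CPM in the uninjured library.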

How the results depend on the processing

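Over the compared classes and subtypes, 52 log2 ratios of single genes were recomputed under up to 14 alternatives, and 28 of the 52 had the same sign under every alternative run. No called ratio changed sign. The count of 3 genes lower in vascular endothelial cells became 1 (Jag2) when cells were limited to those with Xist but without Y-linked RNA, and 1 (Dll1) with equal weight of arterial, capillary and venous cells. After thinning it was 2 (Jag2, Hey1). In lymphatic cells the count of 1 gene higher became 0 by the mean of per-cell CPM, by gating on marker UMIs and after thinning, and 2 (Notch3, Notch4) in cells with a Y-linked UMI and no Xist. The 3 lower there became 2 by the mean of per-cell CPM (Dll1, Hey1), by gating (Dll4, Hey1), in cells with Xist (Dll4, Hey1), in cells with a Y-linked UMI (Dll1, Hey1) and after thinning (Dll4, Dll1). In mural cells the count of 0 lower became 6 with each library clustered alone, when 230 uninjured cells with mural and capillary genes joined the class, 3 (Dll4, Jag2, Notch4) by gating, and 1 (Notch2) with a 20% mitochondrial limit and in cells with a Y-linked UMI, and the count of 0 higher became 1 (Notch1) in the Rgs5 cluster alone. In mesenchymal cells the count of 0 lower became 1 (Heyl) with a pseudocount of 1 CPM, at resolution 1.6, by gating, in cells with a Y-linked UMI and without the cluster led by Apod and Gpc3. The cause of these changes was not tested, and the sex subsets also held fewer cells. No paired analysis was possible because each group is 1 library, and no library could be left out. Sums under about 10 UMIs and the 16 injured satellite cells limit what this depth can show.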

Other observations

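Injured keratinocytes held Jag1 at 116 CPM, Jag2 at 30.3 CPM (27.2 to 33.7), Notch3 at 41.1 CPM (37.5 to 45.0) and Notch1 at 85.8 CPM. Their Dll1 was 6.51 CPM, and Dll4 was 0.792 CPM. No uninjured keratinocytes were found, so no comparison was made.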
